A study of Rattus norvegicus with 32 samples.

Results

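Cytosolic ribosomal protein genes encode the proteins of the cytoplasmic ribosome. Here they were taken by symbol from the deposited count table: Rpsa, Rplp0, Rplp1, Rplp2 and every symbol that starts with Rpl or Rps and a digit, without the Rps6 kinases and without symbols marked as pseudogenes. The rule gave 95 of 32883 rows, 58 of the large subunit and 37 of the small subunit, and used no measured value. A filter on low counts left 86 for testing, 49 of the large and all 37 of the small subunit. Symbols are not all separate genes: Rpl21 has 4 rows, and Rpl32, Rpl7a and Rps27a have 2 each. Rps19bp1 meets the rule by its spelling but encodes a protein that binds a ribosomal protein. Rpl22, Rps13 and Rps26 were not analysed here.

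The libraries came from total RNA of 1 hippocampus from each of 32 wild-type rat pups, in 4 groups. Pups of dams on an iron-deficient diet of 3 to 6 ppm iron, given from gestational day 3 to postnatal day 7, are called ID; pups of iron-sufficient dams are called IS. Each diet had untreated control pups (IS control, n = 8; ID control, n = 9) and pups given intranasal insulin from postnatal day 8 to 21, at 2 administrations a day (IS insulin, n = 7; ID insulin, n = 8). The labels give collection on postnatal day 7 or 21 without saying which applies to a control pup, and name neither strain, sex nor litter. The p-values therefore measure the spread between these pups. For controls, age at collection cannot be told apart from the absence of insulin if they were taken on the earlier day. The leading number of the sample titles is the same for all pups of a group, apart from ID control, in which 5 pups carry one number and 4 another. What that number stands for is not stated, and outside ID control it cannot be told apart from the group.

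A cytoplasmic ribosome consists of a large subunit, which forms peptide bonds, and a small subunit, which decodes the mRNA, and most ribosomal proteins are present in a single copy. Their mRNAs typically begin with a C followed by a run of pyrimidines, the 5′ terminal oligopyrimidine tract, through which insulin and amino acids control their translation by way of mTORC1, the 4E-BP proteins and LARP1. That control acts on translation, which RNA counts do not measure. In neurons, ribosomes in dendrites also make proteins near synapses.

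Promoter sequences are shown for the members that the results turn on, because the run of C and T letters at the start is the sequence feature by which the family is known. They come from RefSeq (build GRCr8), cover 45 bases before to 15 bases from the annotated start, and are written 5′ to 3′ on the gene's strand. Capitals mark the longest run of C and T letters that a script found within 20 bases on either side of the start. Rpl14, Rpl35 and Rps4y2 passed the test in a comparison below. Rps9, Rps6 and Rplp2 are among the 6 members of widest spread between libraries.
Rpl14, chr8:129163575-129163634, plus strand: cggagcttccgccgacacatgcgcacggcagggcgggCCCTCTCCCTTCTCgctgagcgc
Rpl35, chr3:43165907-43165966, minus strand: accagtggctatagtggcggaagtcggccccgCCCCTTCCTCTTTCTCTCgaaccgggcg
Rps4y2, chr4:183000868-183000927, plus strand: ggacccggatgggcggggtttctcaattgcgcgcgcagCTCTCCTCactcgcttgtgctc
Rps9, chr1:74430423-74430482, minus strand: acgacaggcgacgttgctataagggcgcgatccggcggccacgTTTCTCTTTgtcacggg
Rps6, chr5:106420526-106420585, minus strand: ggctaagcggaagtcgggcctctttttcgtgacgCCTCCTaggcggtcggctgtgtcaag
Rplp2, chr1:205975876-205975935, plus strand: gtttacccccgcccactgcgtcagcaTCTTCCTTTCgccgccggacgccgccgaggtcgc

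The marked run is 14 bases long in Rpl14, 18 in Rpl35, 8 in Rps4y2, 9 in Rps9, 6 in Rps6 and 10 in Rplp2. The Rps6 sequence also holds a longer run of C and T letters, which begins before the searched window and is not marked. Of the 89 symbols, 68 had an entry in the promoter table and 67 had exactly 1. Among these 67, 46 (68.7%) held a run of at least 8 C or T letters in that window, with a median longest run of 10. Of all 33469 promoters in the table, 15.5% did, with a median of 5. On the opposite strand (runs of A and G) the shares were 2.99% for the members and 17.2% for all promoters. The run length was chosen after the sequences were seen, and a run in this window is a description of letters, not of a used start.

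Ribosomal protein genes took close to 1% of all counts in every group. Totals were 19619345 to 28062630 counts per library. The members' summed share, in percent of a library's counts, had a mean of 0.859 ± 0.0339 (SD, n = 8; 0.792 to 0.898) in IS control. It was 0.898 ± 0.0403 (SD, n = 9; 0.841 to 0.962) in ID control and 0.927 ± 0.0643 (SD, n = 7; 0.840 to 1.01) in IS insulin. In ID insulin it was 0.903 ± 0.189 (SD, n = 8; 0.656 to 1.32). The ranges of all groups overlapped, and ID insulin held both the highest and the lowest library of the study. The large subunit took about as much more than the small one in every group: the mean ratio of their shares was 1.497 for IS control, 1.499 for ID control, 1.505 for IS insulin and 1.491 for ID insulin.

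**Figure D1:**
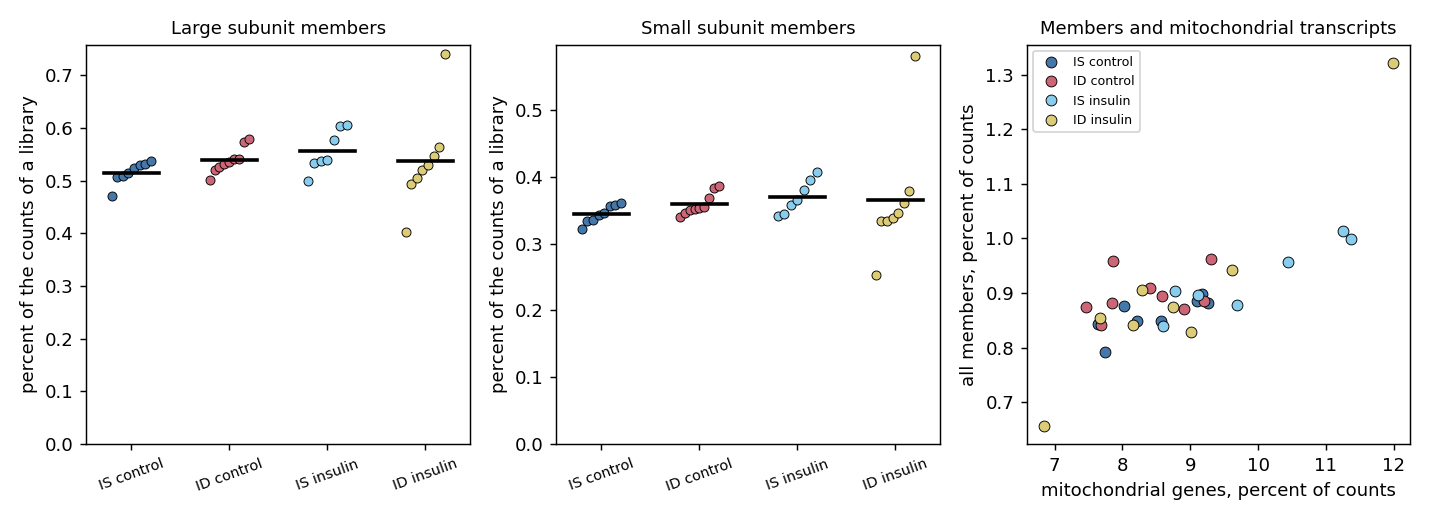
Share of a library's counts in ribosomal protein genes, in percent, for large and small subunit members by group (left and middle; points are libraries, bars are means) and summed against the share of mitochondrially encoded genes (right). One ID insulin library stands at 1.32% and another at 0.656%, the highest and lowest of the 32.

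Both extreme libraries of ID insulin touch every comparison that uses this group. In 71 of 86 members (82.6%), ID insulin replicate 3 had the highest value of its group, against 26.6% of all tested genes. Replicate 6 was the lowest of its group in 71 of 86, against 14.4% of all tested genes. Replicate 3 also had a large to small ratio of 1.28, the lowest of its group. Mitochondrially encoded genes took 11.99% of the counts in replicate 3 and 6.84% in replicate 6, the highest and lowest shares in the study. In the other groups that share was 7.63% to 9.26% (IS control), 7.47% to 9.30% (ID control) and 8.60% to 11.4% (IS insulin). The part of the mitochondrial share in the members' values was not tested. Markers of hippocampal neurons were present in every library (summed 1645 to 2430 CPM). Replicate 3 held the lowest of these sums (1645 CPM), the highest sum of choroid plexus markers (6034 CPM, from 18.3 CPM in the lowest library) and the highest of oligodendrocyte markers (29873 CPM, from 14310 CPM in the lowest). Over all genes, its chi-square per gene against the other libraries of its group was 46.1 to 102, against at most 36.4 for all other pairs within groups. Replicate 6 had 1991 CPM of hippocampal, 4232 CPM of choroid plexus and 17183 CPM of oligodendrocyte markers. The part of these markers in the members' values was not tested. In such tissue RNA, fewer cells of a type and less RNA per cell cannot be told apart. Counts of members called by edgeR and medians that use ID insulin are given with all libraries, without either of these libraries and without both. Counts by sign or at an unadjusted p use all libraries unless stated.

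Levels are given as CPM, the counts of a gene scaled to a common library total with TMM factors. They are not divided by transcript length, so the order of genes by CPM is an order of counts, not of transcript number. Among large subunit members, most counts went to Rplp0 (mean over all libraries 356 CPM), which anchors the ribosomal stalk, Rpl3 (339 CPM), which lies at the peptidyl transferase centre, Rpl4 (321 CPM), Rpl41 (290 CPM) and Rpl7 (232 CPM). Among small subunit members they went to Rpsa (365 CPM), also known as the laminin receptor, Rps16 (205 CPM), Rps3a (200 CPM), Rps7 (198 CPM) and Rps3 (194 CPM). Rpl3 showed little spread: its lowest, median and highest values were 313, 331 and 360 CPM in IS control, 316, 339 and 361 in ID control, 338, 351 and 377 in IS insulin and 294, 334 and 348 in ID insulin. All 4 ranges of Rpl3 overlapped.

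Some members had few counts, and these include genes whose protein every ribosome holds as well as like-named or further rows. The 9 untested rows are all of the large subunit, namely Rpl8, Rpl9, Rpl35a, Rpl35al1, Rpl37, Rpl38, Rpl39, Rpl30l1 and 1 row of Rpl21. Their mean was at most 6.06 counts per library. Tested but low were Rps6, the substrate of the S6 kinases (mean 2.56 CPM), Rps29 (mean 1.18 CPM) and Rpl36a (2.22 CPM). Ribosomal protein genes have many near-identical copies in the genome. How reads that fit several places were counted is not stated, so the level of each such row is uncertain.

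Diet alone moved no ribosomal protein gene past the test. In ID control against IS control, 0 of 86 members passed an adjusted p of 0.05 (edgeR quasi-likelihood test, Benjamini-Hochberg adjustment over 15439 genes), against 0.246% of all tested genes. At an unadjusted p under 0.05, 7 were higher and 3 lower, where 6.89% and 4.94% of all tested genes were. DESeq2 called 0 members and limma voom with sample quality weights 1 (Rpl12), where they called 0.738% and 1.57% of all tested genes. The median log2 fold change was 0.05 for the large and 0.03 for the small subunit, against 0.00 for all tested genes. The fold change was above 0 for 62 of 86 members (72.1%, against 52.0% of all tested genes). In the same comparison, choroid plexus markers had a median log2 fold change of 1.20 (median summed level 324 CPM in IS control, 18.3 to 3307, and 2474 CPM in ID control, 1192 to 5577), with no marker called, and 1 of 9 endothelial and pericyte markers was called higher. Their part in the members' values was not tested.

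Rpl12, a protein of the stalk base to which elongation factors bind, had the smallest adjusted p of the large subunit in that comparison. Its lowest, median and highest values were 68.1, 77.8 and 94.6 CPM in IS control and 84.2, 103 and 118 CPM in ID control. The groups overlapped in the range from 84.2 to 94.6 CPM. The log2 difference was 0.36 (SE 0.10) with an adjusted p of 0.115 in edgeR. It passed with an adjusted p of 0.0333 when only the 2 groups were fitted and 0.0295 without ID insulin replicates 3 and 6, where 0.188% of all tested genes were called higher. Rps6 had the largest positive difference, 1.47 (SE 0.45, edgeR adjusted p = 0.152). That value rested on 1 library, ID control replicate 4, and was 0.31 without it.

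Insulin in iron-sufficient pups went with small positive differences across most of the family, none of which passed the test. In IS insulin against IS control 0 of 86 members were called by edgeR, against 0.0972% of all tested genes, 1 by DESeq2 (Rps4x, where DESeq2 called 1.33% of all tested genes) and 0 by limma voom with quality weights (0.181%). At an unadjusted p under 0.05, 21 members were higher and 0 lower, where 8.67% and 7.50% of all tested genes were. The fold change was above 0 for 80 of 86 members (93.0%, against 53.5% of all tested genes). The median was 0.13 for the large and 0.12 for the small subunit, against 0.01 for all tested genes, with quartiles at 0.10 and 0.23 and at 0.10 and 0.17. Members vary together across libraries, so these counts are not independent observations. No cell type marker was called here. The median log2 fold change was 0.56 for choroid plexus markers, 0.32 for blood and -0.15 for hippocampal neurons. It was -0.22 to 0.08 for the other lists. Summed choroid plexus markers had a median of 324 CPM in IS control (18.3 to 3307) and 1023 CPM in IS insulin (27.8 to 4336). Their part in the members' values was not tested.

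Rps4x, the X-linked gene of the small subunit protein S4, had the lowest adjusted p among members in this comparison. Its lowest, median and highest values were 118, 144 and 156 CPM in IS control and 145, 177 and 196 CPM in IS insulin. The groups overlapped, and 5 of the 7 IS insulin libraries stood above every IS control library. The log2 difference was 0.28 (SE 0.08) with an adjusted p of 0.0967 in edgeR and 0.0486 in DESeq2. Rpl5, which carries 5S rRNA into the large subunit, had the lowest adjusted p of the large subunit (0.29, SE 0.09, edgeR adjusted p = 0.114). Its IS control libraries spanned 153 to 219 CPM and its IS insulin libraries 190 to 293 CPM, so they overlapped. IS insulin replicates 1, 2 and 3 had both the highest member shares of the group (1.01%, 1.00% and 0.957%) and the highest mitochondrial shares (11.3%, 11.4% and 10.4%). Their choroid plexus markers summed to 4336, 4269 and 73.9 CPM.

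**Figure D2:**
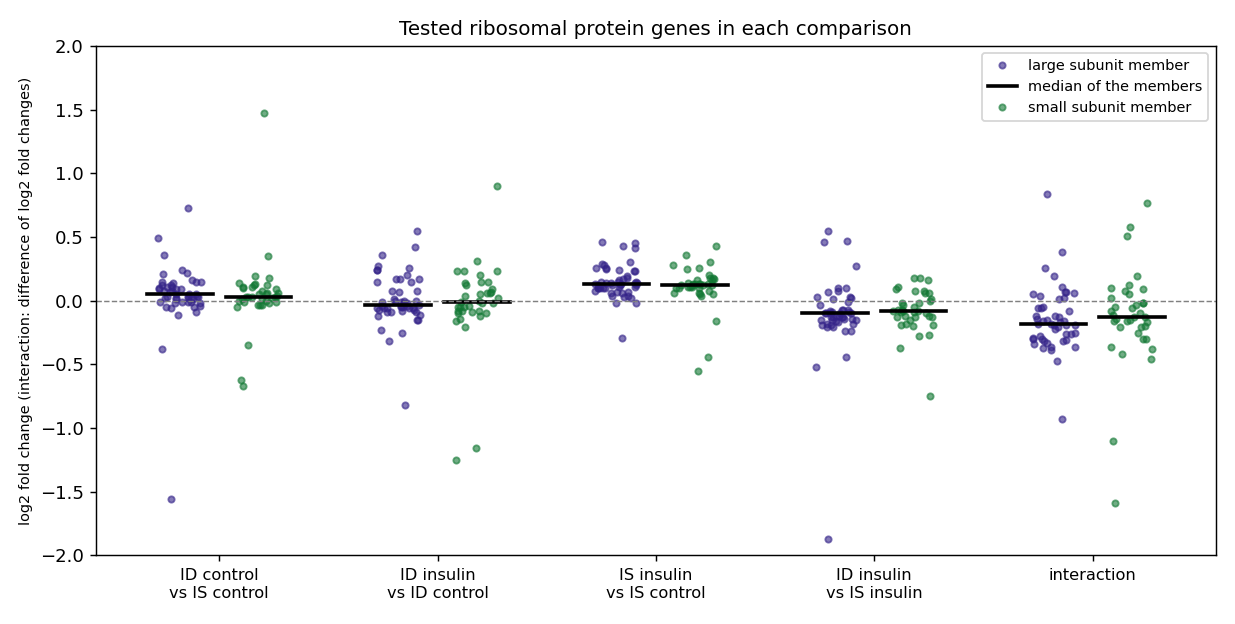
Log2 fold change of each tested ribosomal protein gene in the 4 comparisons and the interaction (difference of the insulin effects, ID minus IS), large and small subunit apart; bars are medians and the dashed line is 0. Medians lie at 0.13 and 0.12 for insulin in IS pups and at -0.18 and -0.13 for the interaction.

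In iron-deficient pups, 2 of 86 members were lower with insulin and none was higher, near the shares over all tested genes. In ID insulin against ID control, 0 members were called higher and 2 lower, against 1.75% and 1.79% of all tested genes. The called members were Rpl14, a large subunit protein without a bacterial counterpart, and Rps4y2, a relative of Rps4x. The median log2 fold change was -0.03 for the large and -0.01 for the small subunit, against 0.00 for all tested genes, and 37 of 86 lay above 0. That number was 14 to 52 over the 32 fits that left out 1 library. Without ID insulin replicate 3, 6 members were lower and 0 higher, against 1.61% and 1.48% of all tested genes, and both subunit medians were -0.10. Without replicate 6, 2 were lower and 1 (Rpl7l1) higher, against 3.58% of all tested genes in either direction, and the medians turned to 0.02 and 0.07. Without replicates 3 and 6, 3 were lower (Rpl14, Rps16 and Rps4y2), against 1.27% of all tested genes, and the medians were -0.03 and -0.04. Blood markers were higher and markers of meninges lower in this comparison: 4 of 6 and 5 of 8 tested genes passed, and 3 of 9 endothelial and pericyte markers were lower. Summed blood markers spanned 1363 to 3205 CPM in ID control and 1260 to 5503 CPM in ID insulin, and summed meningeal markers 615 to 1004 CPM and 364 to 649 CPM. None of either list was at 0 in every library. Also called were 1 of 9 hippocampal, 1 of 8 microglia and 1 of 7 oligodendrocyte markers, all lower. Of 8 thalamus and habenula markers, 1 was higher and 1 lower (median 0.4). Their sum was 392 CPM in ID insulin replicate 5, against 95.9 to 148 CPM in ID control. The part of these cells in the members' values was not tested.

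Rpl14 had 72.4, 80.2 and 87.5 CPM as lowest, median and highest values in ID control and 57.6, 67.9 and 82.6 CPM in ID insulin. Of the 8 ID insulin libraries, 7 lay at or below 70.5 CPM, below all 9 ID control libraries, and replicate 3 lay among them at 82.6 CPM. The log2 difference was -0.25 (SE 0.06, edgeR adjusted p = 0.0117). The call held in all 32 fits that left out 1 library (adjusted p 0.00308 to 0.0275) and ended when ID control was represented by the 5 pups of its first title number (adjusted p = 0.154) or the second title number was fitted as a block (adjusted p = 0.057). Its values in the iron-sufficient groups were 64.9, 73.7 and 78.5 CPM for IS control and 66.6, 76.3 and 87.8 CPM for IS insulin. These overlapped both ID groups.

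Rps4y2 was at a low level, 12 to 76 counts per library. It had 1.11, 1.69 and 3.22 CPM in ID control and 0.489, 0.793 and 1.20 CPM in ID insulin. The groups overlapped in 2 ID insulin libraries, 1.17 and 1.20 CPM, which lay above the lowest ID control library. The log2 difference was -1.25 (SE 0.24, edgeR adjusted p = 0.00502), and the call ended with the 5 ID control pups of the first title number (adjusted p = 0.0663). IS control spanned 0.689 to 2.28 CPM and IS insulin 0.829 to 2.08 CPM. Despite its symbol, the RefSeq promoter entry lies on chromosome 4, and the row had counts in libraries with and without transcripts of Y-linked genes. Whether this row holds reads of Rps4x was not tested.

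With all libraries, insulin-treated pups of the 2 diets differed by the test in 1 member, near the share over all tested genes. The call of that member was lost in some of the alternative fits given below. In ID insulin against IS insulin, 0 members were higher and 1 lower, against 1.07% and 0.972% of all tested genes. That member was Rpl35, which lies at the exit of the peptide tunnel. At an unadjusted p under 0.05, 20 members were lower and 0 higher, where 9.04% and 10.6% of all tested genes were. The median was -0.10 for the large and -0.08 for the small subunit, against 0.00 for all tested genes. Without ID insulin replicate 3, 12 members were lower, against 2.40% of all tested genes, with medians of -0.19 and -0.21. Without replicate 6, 1 was lower (1.51% of all tested genes were called in either direction), with medians of -0.07 and -0.02. Without replicates 3 and 6, 2 were lower (Rpl35 and Rpl37a), against 1.12%, with both medians at -0.13. Of the cell type markers, 2 of 6 for blood were called higher (median 0.82) and 1 of 7 for oligodendrocytes lower, and the median of 8 thalamus and habenula markers was 0.53. Their part was not tested.

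Rpl35 had 115, 118 and 136 CPM as lowest, median and highest values in IS insulin and 75.4, 104 and 128 CPM in ID insulin. Of the ID insulin libraries, 7 lay at or below 109 CPM, below every IS insulin library, and replicate 3 lay at 128 CPM among them. The log2 difference was -0.24 (SE 0.06, edgeR adjusted p = 0.0438). The call was lost in 10 of 32 fits that left out 1 library (adjusted p up to 0.0969) and when only the 2 groups were fitted (adjusted p = 0.136) or the title number was a block (adjusted p = 0.0637). In the control groups the gene had 95.6, 110 and 116 CPM in IS control and 102, 115 and 123 CPM in ID control, which overlapped.

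**Figure D3:**
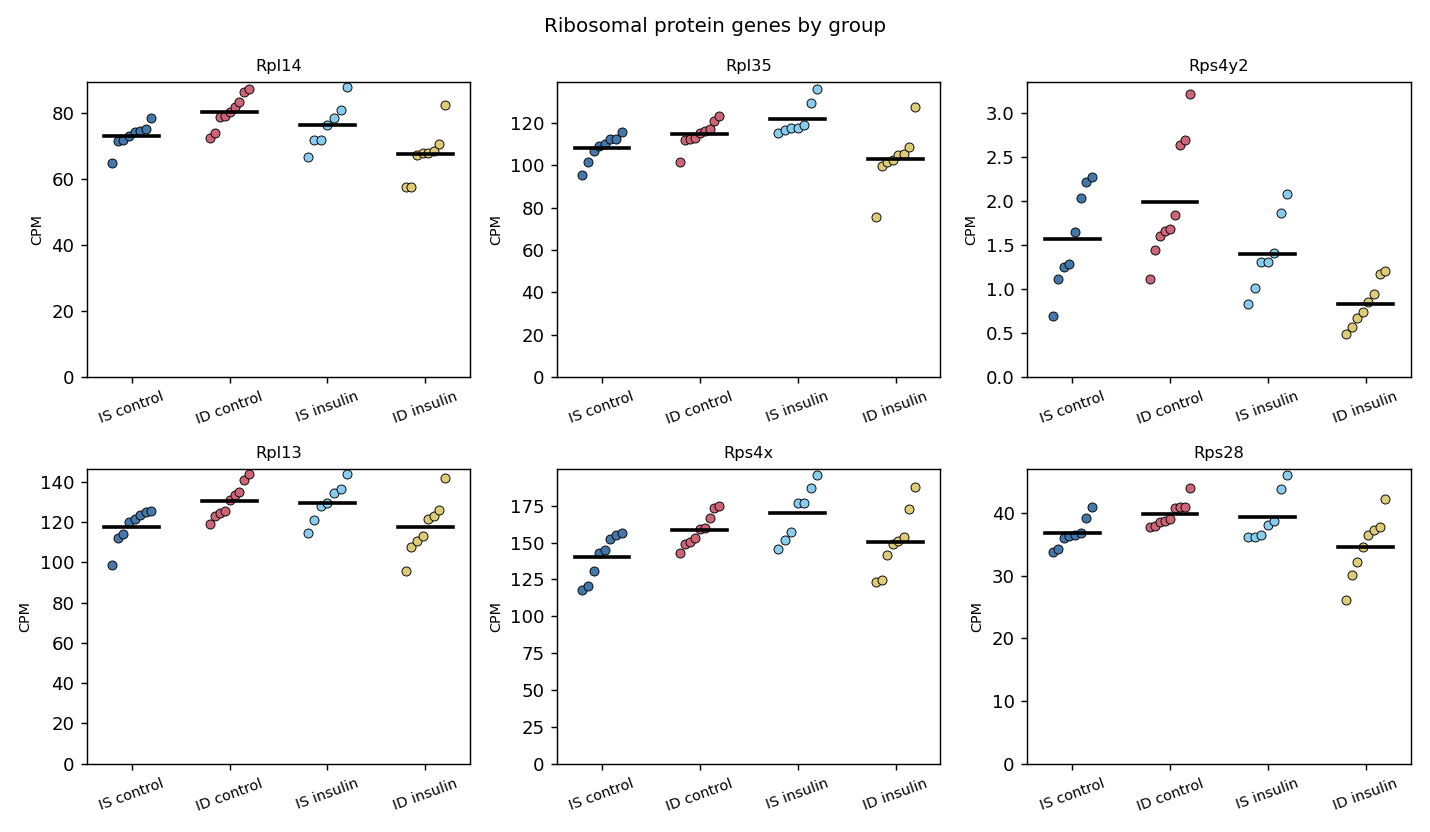
CPM of 6 ribosomal protein genes by group, with 1 point per library and bars at the group means; each axis starts at 0. In Rpl14 the 7 ID insulin libraries other than replicate 3 lie below all 9 ID control libraries, and in Rpl35 the same 7 lie below all IS insulin libraries.

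The difference between the insulin effects of the 2 diets was tested as an interaction, and no member passed it with all libraries. edgeR called 0 of 86, against 0.894% of all tested genes, with the lowest adjusted p at 0.0579 (Rpl14). DESeq2 called 5 members (5.81%, against 2.74% of all tested genes) and limma voom with quality weights 9 (10.5%, against 3.18%). At an unadjusted p under 0.05, 25 were lower and 1 higher, where 8.05% and 8.86% of all tested genes were. The median difference of log2 fold changes was -0.18 for the large and -0.13 for the small subunit, against -0.01 for all tested genes, and 64 of 86 lay below 0. Of the cell type markers, 2 of 9 for endothelium and pericytes and 1 of 7 for oligodendrocytes were lower in the interaction, and their part was not tested.

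Without ID insulin replicate 3, 11 members passed the interaction, all lower, against 1.37% of all tested genes. They included Rpl4, Rpl13, Rpl14, Rpl35, Rpl37a and 1 row of Rpl21 in the large subunit and Rps4x, Rps16 and Rps28 in the small subunit. Without replicates 3 and 6, 7 passed, against 0.868%, including Rpl13, Rpl14, Rpl35, Rpl37a, Rps4x and Rps28. The differences of log2 fold changes there were -0.29 to -0.37, with edgeR adjusted p from 0.00959 to 0.0458. Without replicate 6 alone, 0 passed (0.466% of all tested genes), and the medians were -0.11 for the large and -0.04 for the small subunit. These choices of libraries were made after the data were seen. Leaving out ID control replicate 1 gave 4 calls, and ID control replicate 2 or IS insulin replicate 7 gave 1 each. The shares of all tested genes called in those fits are not given here.

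Rpl13, a large subunit protein, shows the pattern by library. Its lowest, median and highest values were 98.8, 121 and 126 CPM in IS control and 115, 129 and 144 CPM in IS insulin. They were 119, 131 and 144 CPM in ID control and 95.9, 117 and 142 CPM in ID insulin. With insulin the median was higher in IS pups and lower in ID pups, and the groups of each diet overlapped. The interaction was -0.30 (SE 0.09, edgeR adjusted p = 0.0773) with all libraries and -0.30 (adjusted p = 0.0317) without ID insulin replicates 3 and 6. Rps28, which lies where the mRNA leaves the small subunit, had medians of 36.4 CPM (IS control), 38.0 CPM (IS insulin), 39.0 CPM (ID control) and 35.5 CPM (ID insulin), with an interaction of -0.30 (SE 0.10, edgeR adjusted p = 0.104; 0.0283 without replicate 3 and 0.0458 without both).

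**Figure D4:**
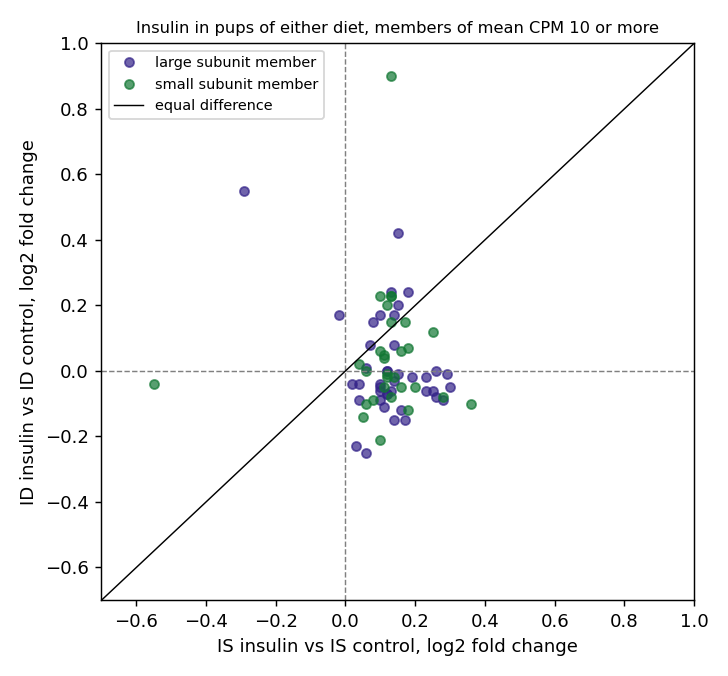
Log2 fold change of insulin against control in ID pups (vertical) and in IS pups (horizontal) for the 71 members of mean CPM 10 or more; the line marks equal differences. With all libraries, 68 of these lie above 0 for IS pups and 29 above 0 for ID pups.

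Ribosomal protein genes varied together from library to library. After group means were removed, the median pairwise Pearson correlation of log2 CPM was 0.67 over 32 libraries for the 71 members of mean CPM 10 or more, and 0.40 without ID insulin replicates 3 and 6. Rpl14 was most like Rpl13 (r = 0.85) and Rplp0 (0.84). Rpl35 was most like Rps18 (r = 0.90), and Rpl27a was also close (0.86). Rps4y2 was like no other member to that degree, with 0.31 as its highest value. All points of these correlations share their libraries and totals.

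A few members spread widely among libraries of the same group. For the 6 members of widest spread, libraries were split at the largest gap between neighbouring values. Any set of values has such a gap, and separate levels were not tested. The gap was 1.71-fold for Rps9, 1.97-fold for Rpl30, 6.97-fold for Rplp2, 7.37-fold for Rps6 and 1.59-fold for the Rps27a row. Rpl39l, the other of the 6, had 0 to 24 counts per library (pooled SD 0.87 on the log2 scale). Rps9, a small subunit protein near the mRNA entry, lay between 2.88 and 5.95 CPM in 20 libraries and between 10.2 and 48.5 CPM in the other 12. Rpl30 lay between 3.70 and 9.78 CPM in 16 libraries and between 19.3 and 49.97 CPM in the other 16. Each group had libraries on both sides for both genes. Rplp2, a stalk protein, was between 0.402 and 2.84 CPM in 30 libraries, 19.8 CPM in IS control replicate 6 and 29.2 CPM in IS insulin replicate 1. Rps6 was between 1.06 and 3.20 CPM in 31 libraries and 23.6 CPM in ID control replicate 4, where it had 525 counts. One Rps27a row (ENSRNOG00000034246), for the ubiquitin fusion protein, was between 11.5 and 40.2 CPM in 23 libraries and between 63.8 and 87.99 CPM in 9. The pooled SD within groups was 1.46 for Rps9, 1.29 for Rplp2, 1.28 for Rpl30, 0.86 for that Rps27a row and 0.75 for Rps6 on the log2 scale, against 0.07 for Rpl3. None of these genes was called in any comparison by edgeR with all libraries, and without ID control replicate 1 that Rps27a row was called higher in ID insulin than in ID control.

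**Figure D5:**
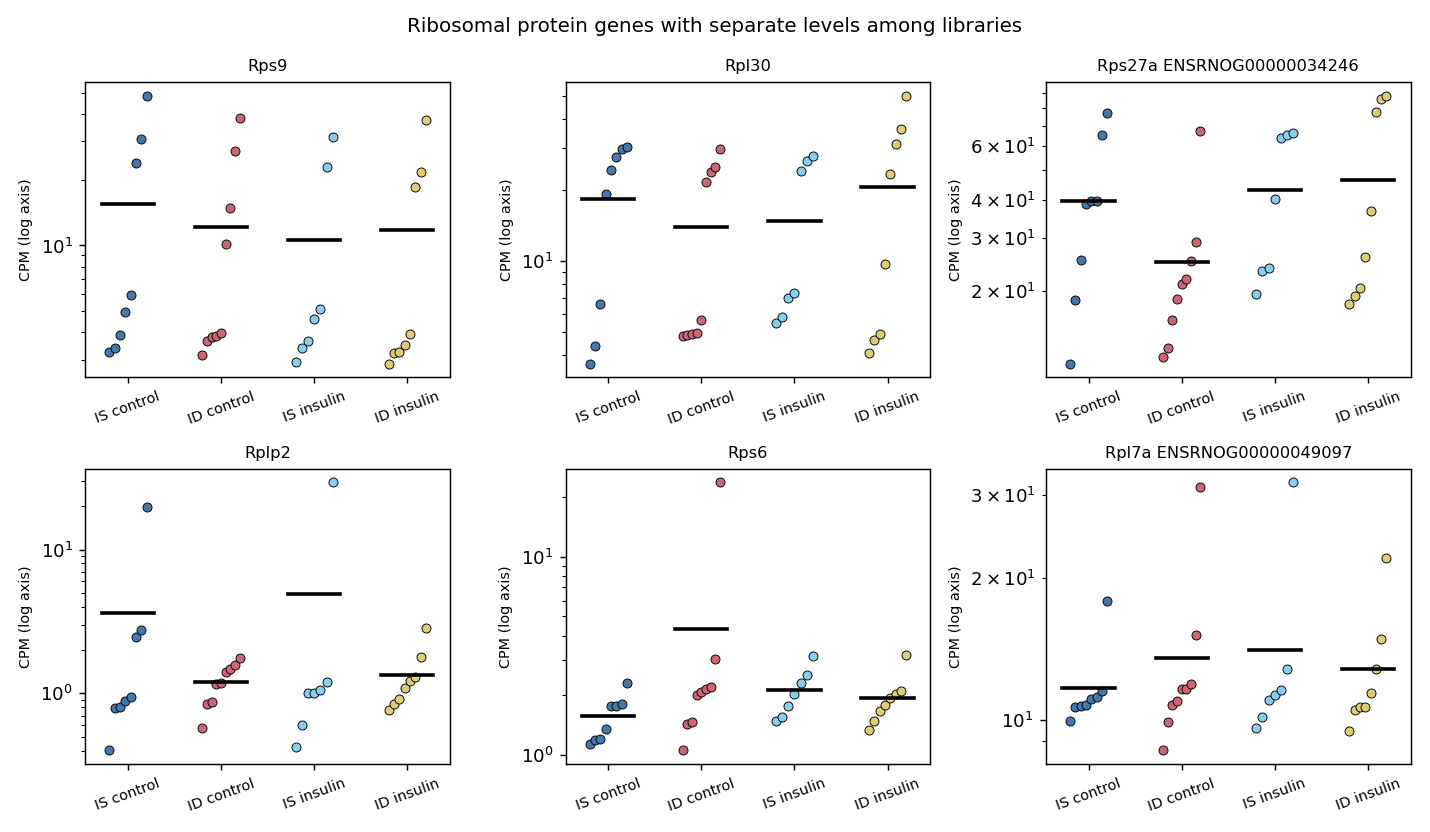
CPM on a log axis of 6 ribosomal protein rows, where points are libraries and bars are group means. All but the Rpl7a row (ENSRNOG00000049097) are among the 6 members of widest spread. Rps9 and Rpl30 have libraries on both sides of their largest gap in every group, and Rps6 has 1 library at 23.6 CPM.

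Other genes of the translation machinery are given for whole lists. Fau, which encodes the ribosomal protein S30 as a fusion with a ubiquitin-like protein, had an interaction of -0.31, not past the test (edgeR adjusted p = 0.133; 0.0648 to 0.18 without replicate 3, 6 or both). Of 73 tested mitochondrial ribosomal protein genes, 69 had a fold change above 0 in IS insulin against IS control (median 0.11), where 53.5% of all tested genes did, and none was called by edgeR. In ID insulin against ID control 1 of them, Mrpl28, was lower (-0.18, edgeR adjusted p = 0.0229), and in ID insulin against IS insulin 1, Mrps26, was lower (-0.34, adjusted p = 0.0263), where 1.79% and 0.972% of all tested genes were lower. Both calls held without replicate 3, 6 or both. Elongation factor genes had fold changes above 0 in 9 of 9 for insulin in IS pups (median 0.05) and in 1 of 9 for insulin in ID pups (median -0.04). For 27 initiation factor genes these counts were 17 (median 0.05) and 12 (median -0.02).

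Among 19 regulators of ribosomal protein mRNAs, 1 was lower and 1 higher in ID insulin than in ID control, where 1.79% and 1.75% of all tested genes were. Eif4ebp1, which encodes the mTORC1 target 4E-BP1, had 5.16, 6.06 and 6.86 CPM as lowest, median and highest values in ID control and 3.13, 3.91 and 5.68 CPM in ID insulin. It was lower by the test (-0.53, SE 0.11, edgeR adjusted p = 0.00637) and passed the interaction (-0.69, SE 0.15, adjusted p = 0.0304). Both held without replicate 3, 6 or both, with the interaction at -0.63 to -0.76. Rps6kb2, which encodes an S6 kinase, was higher (0.28, SE 0.08, edgeR adjusted p = 0.0380), with 11.9 to 17.2 CPM in ID control and 14.2 to 22.2 CPM in ID insulin. Its call ended without replicate 3 (0.26, adjusted p = 0.0655). Both pairs of groups overlapped. Of 39 tested genes of ribosome biogenesis and RNA polymerase I, 1 passed: Polr1b was lower in ID insulin than in IS insulin (-0.36, edgeR adjusted p = 0.0281), where 0.972% of all tested genes were lower. Its adjusted p was 0.0149 to 0.0447 without replicate 3, 6 or both.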

How the data were processed

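RNA of 32 rat hippocampi was sequenced. Per the submitters' processing notes, Trimmomatic (version 0.40), FastQC, HISAT2 (version 2.1.0), featureCounts and edgeR were used. The builds Rnor_6.0 and mm10 are named without their roles. The deposited table holds whole-number counts per gene that the authors did not normalize, as the values show. Strand use and the handling of reads with several matches are not given in the sources used here.

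The tests used edgeR (version 4.0.16, under R version 4.3.3), with TMM factors, filterByExpr by group (15439 genes kept), and the quasi-likelihood test with 1 coefficient per group over all 32 libraries (28 residual degrees of freedom). A gene was called at a Benjamini-Hochberg adjusted p under 0.05 over all tested genes. CPM use TMM-scaled totals. Standard errors were derived from the fold change and its F value. The test was checked on simulated counts. Alternatives used DESeq2 (version 1.42.0), limma voom with sample quality weights (limma version 3.58.1), other scalings and filters, the compared groups alone, parts of ID control, a block on the second title number, and leaving out each library. No 2 libraries of the same group agreed within sampling noise (lowest chi-square per gene 5.77). Pairs of libraries from different groups were not compared in this way.

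The named members were those called, the 5 largest differences in each direction, the extremes of level, the 6 of widest spread and a fixed set. Rpl13, Rps28 and the genes called in alternatives were named after their values were seen. Members and gene lists were chosen with earlier results of these data known. Some items are not reported here.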

Additional observations from a re-analysis of the deposited data

Results flagged for a closer look

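The highest and lowest library were compared with the rest by Dixon's criterion in 80 sets of values. Each set was a group of 7 to 9 libraries, for the members' share, the ratio of subunits or 1 of 18 genes. In all, 14 values lay past its 95% critical value, and some libraries account for more than 1 of them. Chance puts about 1 in 20 groups past it when genes are chosen without regard to their values. The 18 genes include members of widest spread and members named after their values were seen. That rate therefore does not apply to them, and the genes vary together. ID insulin replicate 3 accounts for several of the 14 values. Its member share was 1.32% (0.656% to 0.942% in the rest of its group) and its large to small ratio was 1.28 (1.48 to 1.59 in the rest). Its Rpl22l1, a paralog of Rpl22, stood at 142 CPM against 31.0 to 42.8, Rplp0 at 466 against 279 to 365, and Rplp1 at 334 against 110 to 207. In the same library Rpsa stood at 624 CPM against 258 to 382, and Rps27a (ENSRNOG00000004426) at 569 against 122 to 200.

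IS insulin replicate 1 stood apart in Rpl22l1 (51.3 CPM against 40.8 to 43.1), Rplp2 (29.2 CPM against 0.426 to 1.20) and Rps27a (ENSRNOG00000004426, 249 CPM against 163 to 200). IS control replicate 6 stood apart in Rplp2 (19.8 CPM against 0.402 to 2.76). In ID control, replicate 1 stood apart in Rps27a (ENSRNOG00000034246, 67.4 CPM against 12.1 to 28.9) and replicate 4 in Rps6 (23.6 CPM against 1.06 to 3.05). ID insulin replicate 8 had Rps6 at 3.20 CPM against 1.34 to 2.12.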

How the results depend on the processing

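The medians of the members kept their sign in every alternative except in ID insulin against ID control, where leaving out 1 library gave -0.10 to 0.03 (0.03 without ID insulin replicate 6), and with the block described below. Leaving out 1 library gave medians of 0.03 to 0.05 (ID control against IS control), 0.10 to 0.14 (IS insulin against IS control), -0.19 to -0.05 (ID insulin against IS insulin) and -0.21 to -0.10 (interaction). Calls among members then numbered 0 to 0, 2 to 6 (ID insulin against ID control), 0 to 0, 0 to 12 and 0 to 11 in the same order of comparisons, with 4 in ID insulin against ID control without ID control replicate 1, of which Rpl7l1 and an Rps27a row were higher. The counts of 6, 12 and 11 came without ID insulin replicate 3, where 1.61%, 2.4% and 1.37% of all tested genes were called lower. Shares for the other fits are not given here, apart from those without ID insulin replicate 6 above. Rpl35 in ID insulin against IS insulin was lost without ID control 6, IS control 2, IS insulin 2, 3, 4 or 5, or ID insulin 4, 5, 7 or 8; other calls of all libraries held in all 32 such fits.

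Other alternatives moved counts of calls as follows, and the cause was not tested. DESeq2 called 4 in ID insulin against ID control, with Rpl7l1 higher (4.65% of members, against 5.3% of all tested genes). It called 1 in IS insulin against IS control (1.16%, against 1.33%) and 2 in ID insulin against IS insulin (2.33%, against 4.68%). In the interaction it called 5 (5.81%, against 2.74%). Limma voom with sample quality weights changes both the test and the weight of each library. It called 1 in ID control against IS control (1.16% of members, against 1.57% of all tested genes). In ID insulin against ID control it called 6 (6.98%, against 5.05%) and in ID insulin against IS insulin 6 (6.98%, against 3.67%). The interaction had 9 (10.5%, against 3.18%). Fitting only the compared groups called 1 (ID control against IS control) and 0 (ID insulin against IS insulin), and no filter on counts called 0 in the latter. With the first title number of ID control alone, 0 were called in ID insulin against ID control and 0 in ID insulin against IS insulin. With the second alone, 1 was called in the interaction. The shares of all tested genes called with parts of ID control, with the compared groups alone or with the block below are not given here. Without ID insulin replicates 3 and 6, an alternative chosen after seeing the data, 1, 3, 0, 2 and 7 were called in the order of the report. With mitochondrially encoded genes left out of the total, the member share was 0.939% (IS control), 0.980% (ID control), 1.03% (IS insulin) and 0.993% (ID insulin).

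With the second title number as a replicate block, 1 member (Rps4y2) was called in ID insulin against ID control and 0 in ID insulin against IS insulin; Rpl14 had an adjusted p of 0.057 and Rpl35 of 0.0637. The block gave medians of -0.05 in ID control against IS control and 0.04 in ID insulin against ID control, and -0.06 in the interaction (37 members above 0 and 49 below). Libraries sharing a number were not more alike than others after group means were removed. Over 40 pairs sharing a number, the mean correlation was -0.011 (-0.274 to 0.286), against 0.001 for other pairs between groups. Of 32 libraries, 1 correlated best with its own number. What the numbers stand for is not stated, and these correlations cannot exclude a pairing, because other differences between libraries enter them. Rows of few counts, such as Rps4y2, limit precision.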
